A study of Mus musculus with 6 samples.

Results

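The genes described here are 10 core components and classic targets of the hypoxia-inducible factor (HIF) pathway, chosen by symbol: Hif1a, Epas1, Arnt, Egln1, Egln2, Egln3, Hif1an, Vhl, Bnip3 and Vegfa. Of these 10 genes, 9 had a row among the 14975 genes of the deposited platelet table, and Vegfa was not analysed here. The RNA came from peripheral blood platelets of mice and was measured in 3 libraries labelled WT and 3 labelled AML. As transplant recipients, the study's methods name CD45.1 or C57BL/6 mice. The labels give no time point. Per the paper, the first group are controls, irradiated recipients of normal bone marrow. The second are pre-AML mice, sub-lethally irradiated recipients of secondary MLL-AF9 leukemia cells. All were female and 8 to 12 weeks old. The paper defines pre-AML as 1 week after transplantation, but its methods for the platelet RNA state no time point for either group. The MLL-AF9 oncogene was carried by a retrovirus that also encodes GFP and had been introduced into donor stem and progenitor cells, so the leukemia was in the graft and not in the germline of the recipients. Both groups had thus been irradiated and transplanted. The design text speaks of 2 replicates a group and of pools of 3 to 4 mice, while 3 libraries a group were deposited and the methods state 3 independent mice. P-values therefore measure the spread between libraries, whatever each library pooled.

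HIF is a transcription factor made of an oxygen-regulated α subunit and a stable β subunit. With oxygen at hand, prolyl hydroxylases modify the α subunit, the VHL protein recognises it and the proteasome removes it, so the pathway is controlled mostly through protein stability. When oxygen falls, the α subunit persists and raises genes of glycolysis, angiogenesis, iron handling and mitochondrial turnover, among them its own hydroxylases. Platelets have no nucleus, and their mRNA is what megakaryocytes packed into them.

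HIF binds DNA at a short core, ACGTG or GCGTG. The stretches of 250 bases before the transcription start are shown for Egln1, whose groups did not overlap in the comparison below, and for Egln3 and Bnip3, both well known as HIF-induced genes. Capitals mark each match of the core, on the strand shown or as its reverse complement, sequences are 5′ to 3′ in the direction of the gene, and all were taken from RefSeq on GRCm38.p6. The Egln1 window is chr8:124949255-124949504 on the minus strand, the Egln3 window is chr12:54203875-54204124 on the minus strand and the Bnip3 window is chr7:138909507-138909756 on the minus strand. Gene positions given further below are from GENCODE M21, whose starts can differ from RefSeq. There, Egln1 reaches up to 124949324 and Bnip3 up to 138909519, each inside its window. The second Egln1 match thus lies within the GENCODE gene.

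Egln1: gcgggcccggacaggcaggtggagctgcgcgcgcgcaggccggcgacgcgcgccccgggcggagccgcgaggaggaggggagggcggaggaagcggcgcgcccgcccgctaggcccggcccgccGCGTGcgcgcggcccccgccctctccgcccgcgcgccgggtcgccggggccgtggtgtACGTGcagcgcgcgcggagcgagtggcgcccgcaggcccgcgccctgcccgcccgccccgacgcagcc
Egln3: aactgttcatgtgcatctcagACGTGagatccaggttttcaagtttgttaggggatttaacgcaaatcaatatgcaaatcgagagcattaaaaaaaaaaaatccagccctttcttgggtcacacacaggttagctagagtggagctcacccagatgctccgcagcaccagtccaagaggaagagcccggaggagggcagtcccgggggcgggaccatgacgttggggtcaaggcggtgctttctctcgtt
Bnip3: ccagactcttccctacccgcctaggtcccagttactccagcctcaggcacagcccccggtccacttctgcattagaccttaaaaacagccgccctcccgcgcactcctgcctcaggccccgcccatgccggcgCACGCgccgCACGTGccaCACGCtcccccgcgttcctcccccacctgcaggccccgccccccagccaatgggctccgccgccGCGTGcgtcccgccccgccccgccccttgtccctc

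The Bnip3 window held 5 matches, where the palindrome CACGTG counts once on each strand, the Egln1 window held 2 and the Egln3 window 1. RefSeq windows were found for 9 of the 10 genes, Epas1 being without one. Of all 32851 windows of this length, 38.6% held at least 1 match and 2.58% held 4 or more, so a single match is common. A match is a description of the letters and not a bound site.

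The libraries held between 11936164 and 17779200 recovered reads on listed genes. FPKM values are reads divided by the length of the gene and the size of the library, and recovered reads are those values multiplied back. Pre-AML 3 stood apart from the other 5 libraries. All 7 listed B cell markers, 14 of 15 monocyte and macrophage markers and 8 of 9 T and NK cell markers were highest there. The B cell markers summed to 249.8 FPKM there, 20.8 FPKM in pre-AML 2, 0.881 FPKM in pre-AML 1 and 1.38 to 1.93 FPKM in the controls. The monocyte and macrophage sum was 5471 FPKM there against 4665 to 5317 FPKM in the controls. Only 1 of 10 neutrophil markers was highest there, and their sum was 1.80 FPKM against 2.08 to 2.98 FPKM in the controls. The sum of 3 pan-leukocyte markers was 767 FPKM in pre-AML 3, below 878 FPKM in pre-AML 2. Ptprc, which encodes the leukocyte antigen CD45 used for depletion, was at 1.57 FPKM in pre-AML 3 and at 0.006 to 0.179 FPKM in the other 5 libraries. The B cell gene Pax5 and the monocyte genes Cd14, Ly86 and Itgam were at 0 in every control. The summed level of 15 platelet markers was 63099 FPKM in pre-AML 3 against 92254 to 116030 FPKM in the other libraries. FPKM values are comparatively low in pre-AML 3, where library size over recovered reads was 1.31, the highest of all libraries. The part of this scaling in the lower platelet sum was not tested. All 15 platelet markers were above 0 in all 6 libraries, with Itga2b, the integrin αIIb gene, at 1389 to 1778 FPKM. Erythroid transcripts remained in every library, although the methods describe depletion of Ter119-positive cells. The 7 listed erythroid markers summed to 2710 to 3112 FPKM in the controls. Their sums were 3388, 3320 and 2664 FPKM in pre-AML libraries 1, 2 and 3. Of 4412 genes averaging at least 1 FPKM, limma-trend with Benjamini-Hochberg adjustment called 1, or 0.0227%, and none of the HIF genes was that gene.

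As a group the HIF genes were low in platelet RNA. Egln2 was the most abundant, with a mean of 5.11 FPKM over the 6 libraries, followed by Epas1 at 2.85 FPKM and Bnip3 at 1.06 FPKM, and only these 3 passed the filter of 1 FPKM. Egln3 lay just under it at 0.975 FPKM. Hif1a, Hif1an, Arnt and Vhl followed at 0.689, 0.437, 0.403 and 0.303 FPKM, and Egln1 was last at 0.0598 FPKM. The median of all listed genes was 0.243 FPKM, so that all but Egln1 were above the middle of the table. Egln2 was the highest and Egln1 the lowest of the 9 in every library, whereas the order between them varied. Epas1 came right after Egln2 in control 2 and in all pre-AML libraries, also behind Egln3 and Bnip3 in control 1 and behind Bnip3 in control 3. Egln2 was above Epas1 and Vhl above Egln1 in each library, the ranges of the latter pair not overlapping. The ranges of the other neighbours in this order, from Epas1 down to Vhl, overlapped, so these could not be told apart beyond their spread.

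**Figure D1:**
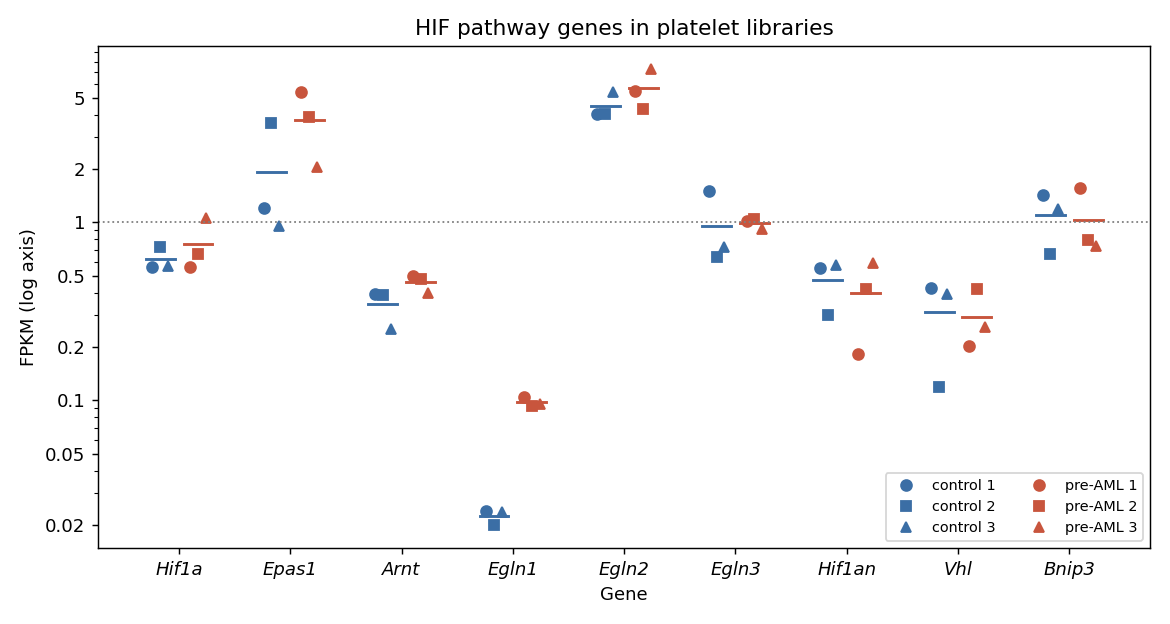
FPKM on a log axis of the 9 HIF pathway genes in each platelet library, with controls in blue, pre-AML in red, short lines for the group means (n = 3) and a dotted line at 1 FPKM. Egln2 is highest and Egln1 lowest in every library, and the groups are apart for Arnt and Egln1.

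Epas1, which encodes the α subunit HIF-2α, lies on chr17:86753700-86833410 of GRCm38. It had 1.20, 3.62 and 0.947 FPKM in controls 1, 2 and 3, against 5.39, 3.89 and 2.05 FPKM in pre-AML libraries 1, 2 and 3. Control 2 stood among the pre-AML libraries, and the other controls were below all of them. Behind these values were 79, 285 and 63 reads in the controls and 401, 328 and 268 reads in the pre-AML libraries. Control platelets averaged 1.92 ± 1.48 FPKM against 3.78 ± 1.67 FPKM in pre-AML platelets (SD, n = 3 each). The log2 fold change on the FPKM + 1 scale, which understates changes of low genes, came to 0.76 (standard error, SE, 0.37, limma-trend adjusted p = 0.522). It was 1.14 without control 2 and 0.51 without pre-AML 1, and it was above 0 in all 13 alternatives run.

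Hif1a, for HIF-1α, lies on chr12:73901375-73947530. Its level was 0.564, 0.723 and 0.570 FPKM in the controls and 0.561, 0.663 and 1.05 FPKM in pre-AML libraries 1, 2 and 3. The other 5 libraries were close together, and pre-AML 3, the library with the highest B cell marker sum, stood above them. It held 145 reads of Hif1a against 39 to 60 in the others. The fit without a filter on low values gave a log2 fold change of 0.11 (SE 0.16, limma-trend adjusted p = 0.812), and without pre-AML 3 it was -0.0054. The part of the leukocyte transcripts in the level of Hif1a was not tested.

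Arnt encodes the β subunit that both α subunits need, and lies on chr3:95434388-95497240. It had 0.394, 0.391 and 0.252 FPKM in the controls and 0.498, 0.480 and 0.401 FPKM in the pre-AML libraries, so every pre-AML library was above every control, though the lowest pre-AML and the highest control value were close. The reads were 37, 44 and 24 against 53, 58 and 75. Scaled to recovered reads in place of FPKM, the groups were apart as well. With limma-voom on the recovered reads, the log2 fold change was 0.39 (SE 0.37, adjusted p = 0.710) and did not pass the test.

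Epas1 was above Hif1a in each of the 6 libraries, by a ratio of FPKM values of 2.14, 5.01 and 1.66 in the controls and 9.61, 5.86 and 1.95 in the pre-AML libraries. Epas1 thus made up 62.4 to 83.4% of the α-subunit FPKM in control and 66.1 to 90.6% in pre-AML platelets, and these ranges overlapped. The lowest pre-AML share was that of pre-AML 3, where Hif1a was highest. The 2 α subunits summed to between 4.49 and 12.0 times the FPKM of Arnt.

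Genes that resemble Epas1 across the libraries were sought among all tested genes by the root-mean-square difference of log2(FPKM + 1) values after centring each gene. The nearest were Cldn5, the claudin-5 gene of endothelial tight junctions, at 0.14, Igfbp7 at 0.19 and Sox18, an endothelial transcription factor gene, at 0.19, where the profile of Epas1 itself has a root mean square of 0.63. Cldn5 had 1.68, 4.37 and 1.31 FPKM in the controls and 5.57, 3.60 and 2.75 FPKM in the pre-AML libraries. Like Epas1, all were highest in pre-AML 1 and lowest in control 3. Epas1 is known to be abundant in endothelium, so 20 endothelial genes, these 3 included, were then listed and looked at as levels only. Their median was 0.209, 0.603 and 0.143 FPKM in controls 1, 2 and 3, against 0.662, 0.379 and 0.270 FPKM in pre-AML libraries 1, 2 and 3. Since the list holds the 3 genes found by their likeness to Epas1, the median of the other 17 is given too, at 0.181, 0.342 and 0.0970 FPKM in the controls and 0.545, 0.319 and 0.234 FPKM in the pre-AML libraries. Summed, the list was at 59.8 to 78.3 FPKM in control and 65.4 to 85.4 FPKM in pre-AML libraries, most of it from Tie1 and Plvap at 18.7 FPKM or more in each library. Of the 20 genes, 5 had a control mean of at least 1 FPKM, 1 was at 0 in control 3 and none in any other library, 9 were highest in pre-AML 1, 11 were lowest in control 3 and 6 were lowest in pre-AML 3. Cdh5, the VE-cadherin gene that defines endothelium, was between 0.0800 and 0.751 FPKM. The part of endothelial RNA in the level of Epas1 was not tested, and fewer cells of a type and less RNA per cell cannot be told apart in bulk libraries.

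**Figure D2:**
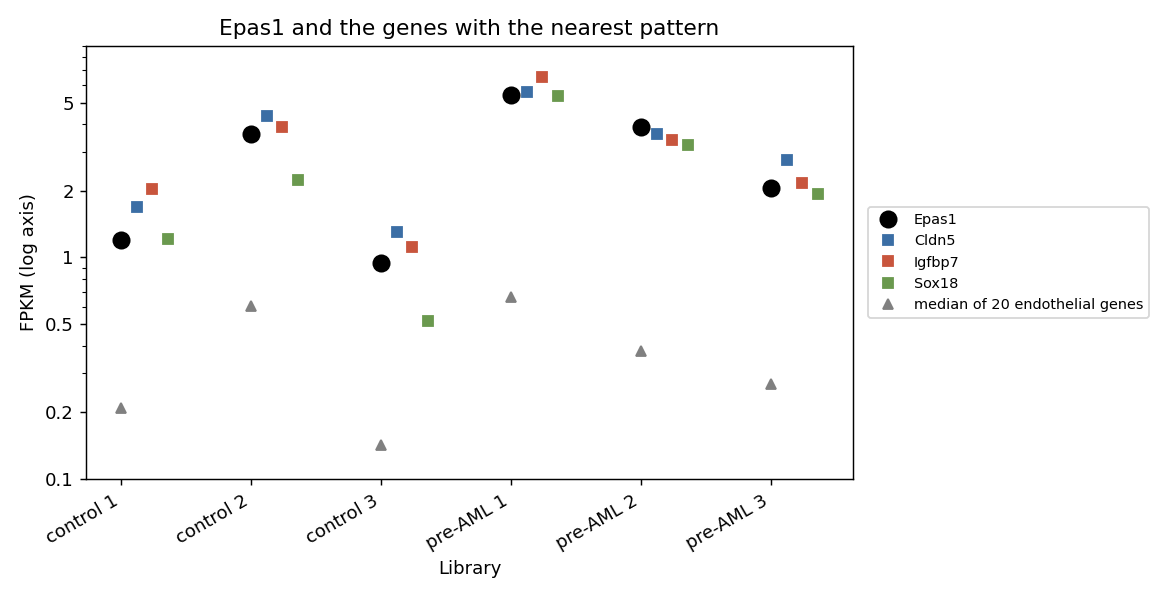
FPKM on a log axis of Epas1, of the 3 genes with the nearest pattern and of the median of 20 endothelial genes in each platelet library (points are single libraries, side by side for legibility). All are highest in pre-AML 1 and lowest in control 3, and control 2 and pre-AML 2 lie above control 1 for each.

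The prolyl hydroxylases that mark the α subunits were very unequal. Egln2, which encodes PHD1, lies on chr7:27158658-27166802 and made up 72.6 to 87.9% of the summed FPKM of the 3 hydroxylase genes in every library. It had 4.05, 4.07 and 5.42 FPKM in the controls and 5.49, 4.33 and 7.29 FPKM in the pre-AML libraries. The groups overlapped, with pre-AML 2 below control 3 and pre-AML 3 far above the rest. Its log2 fold change was 0.27 (SE 0.19, limma-trend adjusted p = 0.588). Without pre-AML 3 it was 0.10, and after removing the trends that libraries showed along gene length and GC content it was 0.022. The genes with the nearest pattern to Egln2 were Mon1a, Sertad1 and Pmp22. Their differences were 0.085 to 0.089 on the log2 scale, against 0.26 for the profile of Egln2 itself. Like Egln2, all 3 were highest in pre-AML 3, but they had been chosen for their likeness to Egln2. The part of that library's leukocyte transcripts in the level of Egln2 was not tested.

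**Figure D3:**
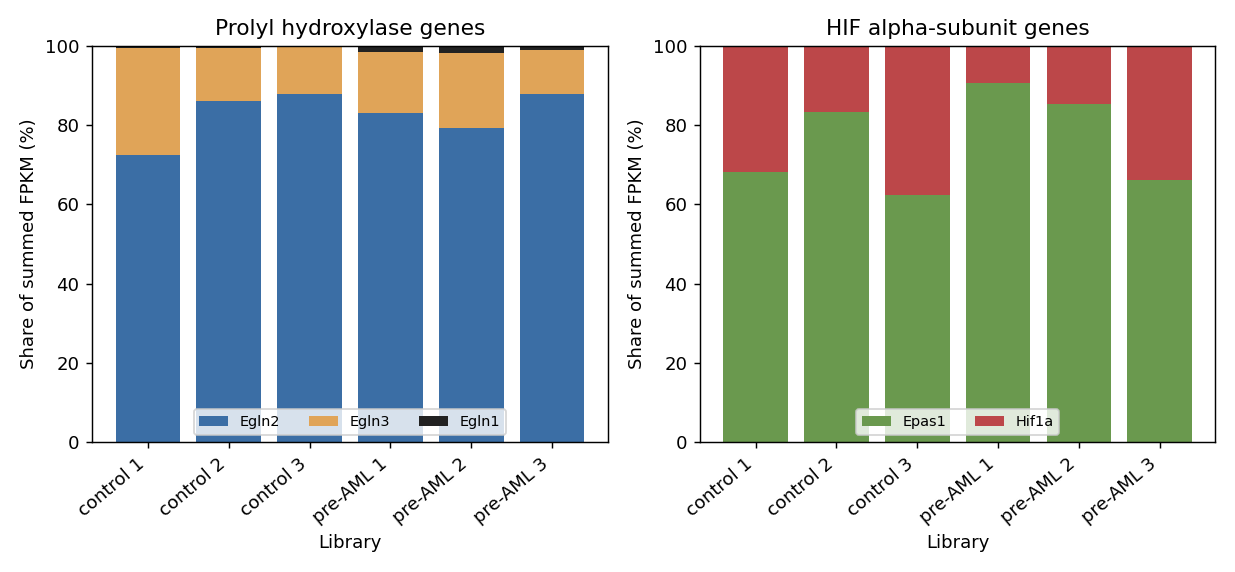
Share in percent of the summed FPKM that each prolyl hydroxylase gene (left) and each HIF α-subunit gene (right) takes in each library. Egln2 holds at least 72.6% of the first sum and Epas1 at least 62.4% of the second in every library.

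Egln3, for PHD3, is on chr12:54178981-54203860. Its values were 1.50, 0.641 and 0.726 FPKM in the controls and 1.02, 1.05 and 0.918 FPKM in the pre-AML libraries, so the pre-AML libraries lay inside the range of the controls and close together. The means were 0.957 ± 0.476 and 0.993 ± 0.0671 FPKM (SD, n = 3 each). Control 1 set the upper end with 47 reads, against 24 and 23 in the other controls.

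Egln1 encodes PHD2, usually regarded as the main oxygen sensor, and lies on chr8:124908587-124949324. It was nearly absent from platelet RNA, at 0.0237, 0.0198 and 0.0234 FPKM in the controls and 0.105, 0.0922 and 0.0954 FPKM in the pre-AML libraries. Each control held 1 read of it, and the pre-AML libraries held 5, 5 and 8 reads, so the groups were apart at a very low level. Pooled over the libraries, 18 reads against 3 gave a ratio per library size of 4.37 with an exact 95% interval of 1.28 to 23.2, which covers counting error only. The limma-voom fit gave a log2 fold change of 1.66 (SE 1.03, adjusted p = 0.618), and limma-trend without a filter gave 0.10 (SE 0.032, adjusted p = 0.705). With the length and GC trends removed the latter was -0.017, also on the FPKM + 1 scale, where values this low differ little. On the FPKM + 0.1 scale without a filter, limma-trend gave 0.69 (SE 0.27, adjusted p = 0.652). A change was thus not called at this depth.

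Hif1an encodes FIH, the asparagine hydroxylase that blocks the coactivator contact of the α subunits, and lies on chr19:44562850-44576274. It had 0.555, 0.301 and 0.572 FPKM in the controls and 0.182, 0.421 and 0.590 FPKM in the pre-AML libraries. Both the lowest and the highest value were in pre-AML libraries. Vhl, the substrate receptor of the ligase that removes hydroxylated α subunits, is on chr6:113623959-113631633. It had 0.426, 0.119 and 0.393 FPKM in the controls and 0.201, 0.420 and 0.257 FPKM in the pre-AML libraries, on 5 to 19 reads a library, and the controls spanned all pre-AML values. The log2 fold changes of -0.084 for Hif1an and -0.017 for Vhl in limma-trend without a filter were smaller than their standard errors of 0.17 and 0.15 (adjusted p = 0.865 and 0.970).

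Bnip3, a HIF-induced gene for a mitophagy receptor of the outer mitochondrial membrane, lies on chr7:138890836-138909519. Its values were 1.43, 0.659 and 1.19 FPKM in the controls and 1.56, 0.790 and 0.738 FPKM in the pre-AML libraries. The groups covered the same range, and the spread within each was wider than the difference of their means, 1.09 ± 0.394 and 1.03 ± 0.460 FPKM (SD, n = 3 each). The log2 fold change was -0.049 (SE 0.24, limma-trend adjusted p = 0.947).

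Reads on 3 of these genes could in part come from overlapping transcripts, also from those on the opposite strand, since the library kit does not mark strand. In GENCODE M21, exons of Hif1a overlap those of Gm15283 on the opposite strand over 330 bases and those of Gm49321 on the same strand over 148 bases. On the opposite strand, exons of Bnip3 overlap those of Gm45507 over 504 bases and exons of Egln2 those of Cyp2t4 over 11 bases.

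In the whole comparison, 0 of the 3 HIF genes tested were called by limma-trend, and 0 of the 3 had an unadjusted p under 0.05. With limma-voom on recovered reads, which tested all 9, again 0 were called and 0 had an unadjusted p under 0.05. The background was 0% there, with 0 of 12517 genes called and 986 at an unadjusted p under 0.05. Limma-trend without a filter also called 0% of 14975 genes, with 870 at an unadjusted p under 0.05, 1 of the 9 HIF genes (Egln1) among them. Every pre-AML library was above every control for 2 of the 9, Arnt and Egln1, which compares with 7.53% of all listed genes, and every pre-AML library was below every control for 0 of the 9, against 5.74% of all. The other 7 overlapped. With 3 libraries against 3, an exact two-sided permutation test of any single gene cannot give a p below 0.1. Rescaling the libraries to their recovered reads raised the log2 fold changes of the tested genes by a median of 0.11, and left Arnt and Egln1 apart.

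**Figure D4:**
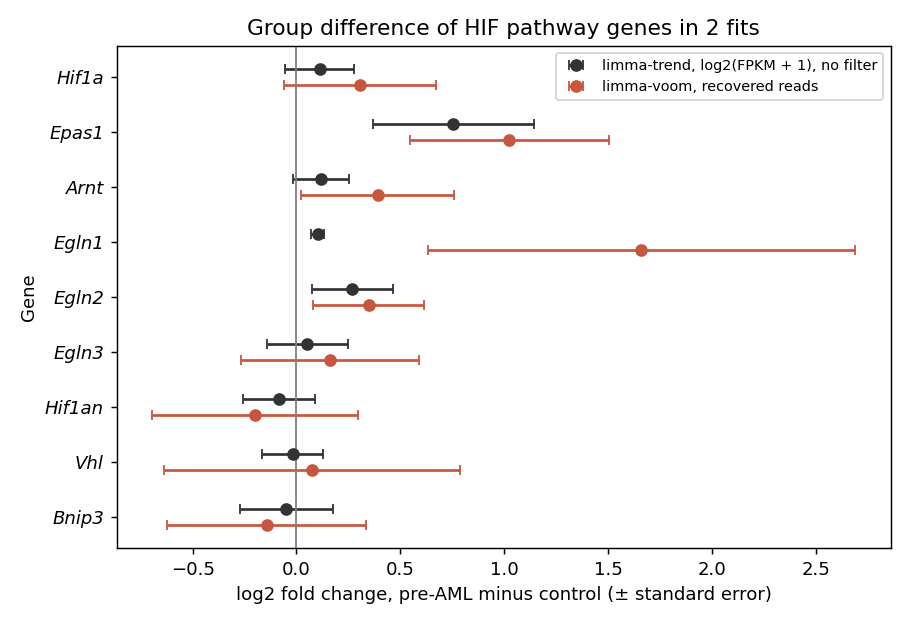
Log2 fold change, pre-AML minus control, of each HIF pathway gene with its standard error, from limma-trend on log2(FPKM + 1) without a filter (black) and from limma-voom on recovered reads (red). Epas1 and Egln1 lie farthest to the right in the second fit, and none had an adjusted p under 0.05 in either.

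Other genes of the pathway were taken in 7 lists of 106 genes, of which 102 had a row and 39 passed the filter. Of these 39, 21 were higher on average in pre-AML libraries and 18 lower, and 0 were called. An unadjusted p under 0.05 in limma-trend was reached by 1 higher gene, Hmox1, and 1 lower gene, Eloc. The share of all genes at that p was not counted in this fit. It was reached by 870 of 14975 genes in the fit without a filter. The median over all 4412 tested genes was -0.055. Among the 102 genes with a row, every pre-AML library was above every control for 7 and below for 5, beside 7.53% and 5.74% of all listed genes.

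Of 15 genes that act with VHL in its ligase or otherwise bear on HIF stability, 8 passed the filter, among them the ligase genes Elob, Eloc and Rbx1. Nedd8, whose product activates the cullin of the ligase, was at 157.7 ± 4.64 FPKM over the controls against 165.6 ± 14.9 FPKM over pre-AML libraries (SD, n = 3 each). Elob, for elongin B, had 67.5, 62.8 and 57.5 FPKM in the controls and 77.0, 70.2 and 75.4 FPKM in the pre-AML libraries, which did not overlap. Its partner Eloc, for elongin C, had 29.8, 28.9 and 24.4 FPKM in the controls and 26.0, 19.0 and 13.3 FPKM in the pre-AML libraries. Elob differed by 0.24 and Eloc by -0.54 on the log2 scale (limma-trend adjusted p = 0.526 and 0.522), and with the length and GC trends removed these were -0.0017 and -0.18. Rbx1, the RING subunit, differed by -0.23 (limma-trend adjusted p = 0.602), and -0.0089 with these trends removed. Without pre-AML 3, the differences of Eloc and Rbx1 were -0.30 and -0.088. Of the 8 tested genes, 4 had fold changes above 0 and 4 below.

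Vhl, at 0.303 FPKM, was thus far below its partners Elob and Eloc in the same libraries, on the length-scaled FPKM. A further list held other subunits, coactivators and genes that act on the coactivator contact. In it, Cited4 was the most abundant with 17.7 ± 2.99 FPKM over the controls against 19.1 ± 2.25 FPKM over pre-AML libraries (SD, n = 3 each). Ncoa1 and Cited2, an inhibitor of the coactivator contact, averaged 4.79 and 1.02 FPKM over the controls against 4.74 and 1.18 FPKM over pre-AML libraries. All 3 had fold changes above 0, with a median of 0.11, which turned to -0.19 for Cited4 and -0.018 for Cited2 with the length and GC trends removed, and the smallest adjusted p was 0.785 in limma-trend.

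Of 21 glycolytic HIF targets, 15 passed the filter, and 0 were called. Of these, 6 were higher on average in pre-AML libraries and 9 lower, with a median log2 fold change of -0.035. Gapdh and Aldoa averaged 376.3 and 278.1 FPKM over the controls against 386.1 and 278.7 FPKM over pre-AML libraries. Slc2a3, for the platelet glucose transporter GLUT3, had 326.9, 259.6 and 298.1 FPKM in the controls and 256.3, 253.9 and 202.6 FPKM in the pre-AML libraries, all below the controls. Pdk1, for a kinase that inhibits mitochondrial pyruvate dehydrogenase, had 4.93, 3.98 and 4.59 FPKM in the controls. It had 3.61, 3.56 and 3.11 FPKM in the pre-AML libraries, again all below. The log2 fold changes of Slc2a3, Pdk1, Pgk1 and Pgam1 were -0.31, -0.31, -0.36 and -0.68, each with an adjusted p of 0.522 in limma-trend. The groups overlapped for Pgk1 and Pgam1. Pgam1 had 5.85, 2.69 and 2.12 FPKM in the controls, highest in control 1, and 1.10, 1.77 and 2.27 FPKM in the pre-AML libraries. Scaled to recovered reads, those of Slc2a3, Pdk1 and Pgk1 were -0.18, -0.21 and -0.23. At that scaling, Slc2a3 and Pdk1 in pre-AML 3 were slightly above control 2, so the groups of both overlapped. Eno1 and Pfkl, named here after their values were seen, differed by 0.36 and 0.32 in the other direction.

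Mitochondrial HIF targets included Bnip3l, the close relative of Bnip3 that serves mitophagy in red cell maturation. Bnip3l had 192.9, 218.4 and 204.4 FPKM in the controls and 224.8, 209.5 and 162.9 FPKM in the pre-AML libraries, far above Bnip3 in each. Its log2 fold change was -0.055 (SE 0.16, limma-trend adjusted p = 0.897) and 0.082 without pre-AML 3. The part of the erythroid transcripts in the level of Bnip3l was not tested. Fundc1, for another mitophagy receptor, was at 25.3 ± 1.15 FPKM over the controls against 19.5 ± 5.01 FPKM over pre-AML libraries (SD, n = 3 each), with all pre-AML libraries below the controls, at 23.6, 21.0 and 13.9 FPKM. Its log2 fold change of -0.39 (SE 0.19, limma-trend adjusted p = 0.522) was -0.18 without pre-AML 3 and -0.053 with the length and GC trends removed. The means of Mxi1, for a MYC antagonist, were 69.9 and 64.4 FPKM, and those of Fam162a 0.943 and 1.32 FPKM. Of the 5 tested genes, 2 had fold changes above 0 and 3 below.

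Of the remaining classic targets, 6 were tested, with 4 fold changes above 0 and 2 below and a median of 0.24. Mif, a cytokine gene, was at 645.6, 657.1 and 625.8 FPKM in the controls and 730.1, 829.7 and 661.7 FPKM in the pre-AML libraries, which were all higher, with a log2 fold change of 0.20 (adjusted p = 0.570) that was -0.068 with the length and GC trends removed. Hmox1, for heme oxygenase, had 1.22, 1.30 and 1.49 FPKM in the controls and 2.53, 2.27 and 5.16 FPKM in the pre-AML libraries. Its log2 fold change was 0.83 (SE 0.24, limma-trend adjusted p = 0.522) and 0.54 without pre-AML 3, and the groups did not overlap. Trf, for transferrin, was at 0.0453 and 0.599 FPKM in pre-AML 1 and pre-AML 2 and at 17.8 FPKM in pre-AML 3, so its mean rests on that library. Plin2 was likewise highest in pre-AML 3, at 12.8 FPKM against 5.67 to 7.23 FPKM elsewhere. Ndrg1 had 203.4 FPKM over the controls against 197.1 FPKM over pre-AML libraries on average. The part of the leukocyte transcripts of pre-AML 3 in Hmox1, Trf and Plin2 was not tested.

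**Figure D5:**
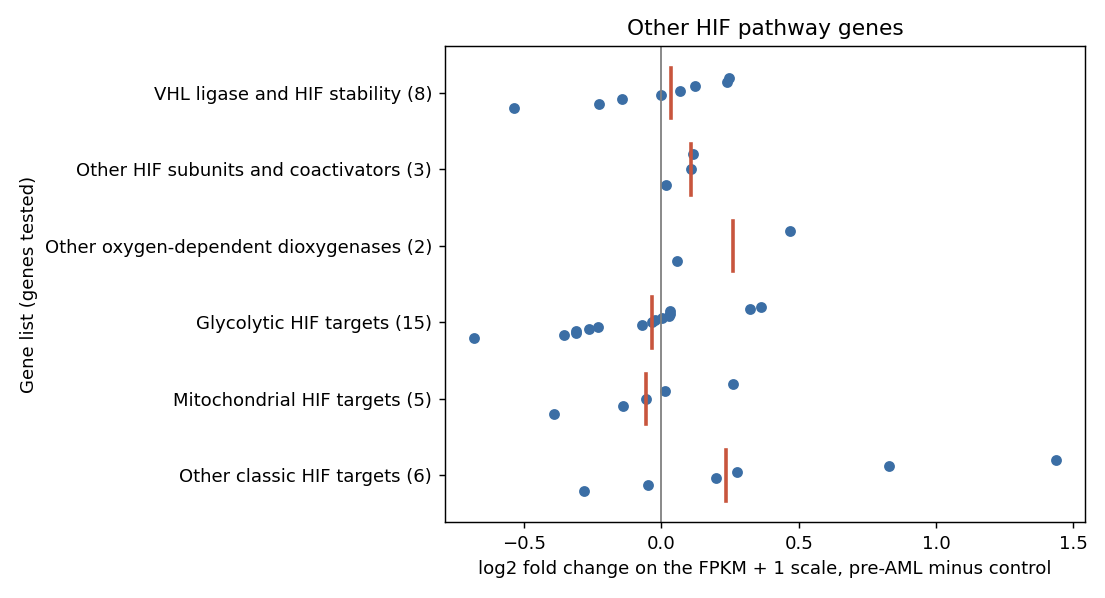
Log2 fold change on the FPKM + 1 scale, pre-AML minus control, of each tested gene (blue points) in the lists of other HIF pathway genes, with the list median as a red line and the number of genes tested in brackets. Points fall on both sides of 0 in 4 of the 6 lists shown.

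VEGF ligands and receptors, which drive the growth of blood vessels, were scarce, and 0 of the 8 genes with a row passed the filter. The highest were the receptor genes Kdr, at 0.672 ± 0.0986 FPKM over the controls against 0.702 ± 0.163 FPKM over pre-AML libraries, and Flt1, at 0.540 ± 0.293 against 0.403 ± 0.132 FPKM (SD, n = 3 each). Vegfc was at 0.345 ± 0.126 FPKM over the controls against 0.274 ± 0.203 FPKM over pre-AML libraries (SD, n = 3 each), and the groups overlapped for all 3.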

How the data were processed

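The authors mapped reads of SMART-Seq2 libraries to mm10 with STAR and ran DESeq2, and they deposited FPKM values of 14975 genes in 6 libraries. The counting program and annotation are not given in the sources used here. Gene lengths (union of exons, GENCODE M21, GRCm38) turned FPKM into reads, with library sizes found as those that gave whole numbers; of values under 100 reads, 85.5 to 87.1% were within 0.1 of one. For Egln2 a length of 2464 bases in place of 2800 was needed. Library size over recovered reads was 1.31 in pre-AML 3 and 0.983 to 1.01 in the others, so FPKM values are comparatively low there.

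Genes averaging at least 1 FPKM were tested as log2(FPKM + 1) with limma-trend (limma 3.58.1, R 4.3.3, no covariates, Benjamini-Hochberg over all genes, threshold 0.05). Genes below the filter are given from the fit with no filter and from limma-voom on recovered reads (at least 10 in total). The fit was also run on simulated data, with large changes placed only in genes above the filter and no library standing apart. That run does not show how well changes of the sizes seen here would be found. Members and lists were chosen with earlier results of these data known, and the endothelial list after the genes nearest to Epas1 were seen. Named were all members, in each list up to 3 genes of highest mean and up to 3 tested genes of smallest p, and the 3 genes nearest in pattern to each of Egln2 and Epas1. Cdh5, Tie1, Plvap, Ptprc and Itga2b were added as markers. Figures were drawn with matplotlib 3.10.9.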

Additional observations from a re-analysis of the deposited data

How the results depend on the processing

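For the 9 HIF genes 106 alternatives were run. The direction was kept in 89 and turned in 17, on 6 genes, and 0 genes were called in any, with adjusted p of 0.282 or more. Epas1 (0.51 to 1.14), Egln2 (0.022 to 0.42) and Arnt (0.068 to 0.39) kept their direction throughout. Scaling to recovered reads gave 0.015 for Vhl and 0.012 for Bnip3, removing length and GC trends -0.017 for Egln1, -0.024 for Egln3 and 0.20 for Bnip3, and limma-voom 0.075 for Vhl. Leaving out each library gave ranges of -0.0054 to 0.19 for Hif1a, -0.061 to 0.24 for Egln3, -0.13 to 0.047 for Vhl, -0.18 to 0.032 for Hif1an and -0.23 to 0.068 for Bnip3. The causes were not tested. The number of genes called among all tested was 0 with no filter, with a minimum of 5 FPKM, with library size only and with limma-voom, and 0 to 2 when a library was left out (2 without pre-AML 3). With the replicate number as a block, 1 gene and 0 HIF genes were called, and Epas1 was at 0.76. Same-numbered libraries did not deviate together (correlations of -0.043, -0.12 and -0.17 across genes), and 0 libraries were nearest to their own number. Depth limits Egln1 and Vhl most, with at most 8 and 19 reads in a library.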

Other observations

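Other oxygen-dependent dioxygenases, which share the chemistry of the prolyl hydroxylases, were mostly low: of 19 genes, 2 passed the filter and 0 were called by limma-trend (0 had an unadjusted p under 0.05). Plod3, a lysyl hydroxylase gene, had 1.02, 0.771 and 0.595 FPKM in the controls against 0.516, 0.763 and 4.64 FPKM in pre-AML libraries 1, 2 and 3, so its mean was raised by pre-AML 3 only, and its log2 fold change of 0.47 was -0.13 without that library. Kdm5c, a histone demethylase gene, was at 1.06 ± 0.176 FPKM over the controls against 1.14 ± 0.153 FPKM over pre-AML libraries (SD, n = 3 each). P4ha1, for a collagen prolyl hydroxylase and itself a HIF target, had 0.642, 0.311 and 0.715 FPKM in the controls and 1.17, 0.661 and 1.40 FPKM in the pre-AML libraries. Pre-AML 2 lay below control 3, so the groups overlapped, and the gene was below the filter.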
